A study of Glycine max with 24 samples.

Results

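Beta-conglycinin is the 7S storage globulin of soybean seed, and 4 probesets of the Soy GeneChip were described as its beta chain in the study's additional files: Gma.1017.1.S1_at, Gma.1017.1.S1_s_at, Gma.1017.2.S1_a_at and Gma.16410.1.S1_at. They were taken by that description, and they make up 4 of the 37763 probesets in the deposited table, of which 37694 were tested once control probesets were set aside. Only 1586 tested probesets have a description in those files, which largely list probesets that changed on these arrays. The choice was therefore not independent of the values. The study compared developing seed of a pair of near-isogenic lines (NILs), named HiProt and LoProt in the labels and HiPro and LoPro here, that differ at a seed protein QTL on linkage group I (chromosome 20). HiPro carries the high protein allele of Glycine soja PI468916 at that locus, and LoPro the Glycine max allele of the recurrent background that both share. Each line is a single NIL. Seed was sorted by weight into stage 1 (25 to 50 mg), stage 2 (50 to 100 mg), stage 3 (100 to 200 mg) and stage 4 (200 to 300 mg), with 3 arrays for each line and stage and 24 arrays in all. Seed of 3 growth chamber plants was pooled for each replicate and seed of all 4 stages was picked from those plants at one harvest, which leaves 6 independent plant pools behind the 24 arrays.

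Beta-conglycinin is a trimer built in varying combinations from alpha', alpha and beta chains. The chains belong to the cupin family, are made on the rough endoplasmic reticulum of the cotyledon cells during seed fill and are laid down in protein storage vacuoles. The beta chain lacks the N-terminal extension of the alpha and alpha' chains and is poor in methionine and cysteine, which makes its share of seed protein a matter for feed quality. Its genes are transcribed later in seed development than those of the alpha and alpha' chains.

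The probesets do not all stand for the same gene. The additional files match the 3 Gma.1017 probesets to the gene model Glyma20g28640 and Gma.16410.1.S1_at to Glyma10g39170. The platform annotation gives the symbol CG-BETA-1 to Gma.1017.1.S1_at and Gma.1017.2.S1_a_at and no symbol to the other two. The soybean RefSeq annotation (assembly Glycine_max_v4.0) lists CG-BETA-1 and CG-BETA-2 on chromosome 20, with 17 listed genes between them, and places CG-BETA-2 close to a pair of alpha chain genes, LOC106794094 and CG-3. CG-1, the alpha' gene, is listed on chromosome 10. The suffix _at marks probes meant for one transcript, _s_at probes that also match transcripts of other genes and _a_at probes shared by variants of one gene, so the 3 Gma.1017 probesets cannot be assumed to separate CG-BETA-1 from CG-BETA-2. Gma.16410.1.S1_at shares its gene model with a further probeset that is described as the alpha' chain, called the alpha' probeset here, and its name as a beta chain therefore rests on the description alone. Glyma20g28640 lies on the chromosome that carries the QTL, but it is not among the gene models that the additional files list for the QTL region, and its number comes after all of theirs.

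Overall brightness was even across the series. The 2% trimmed mean of the signal was between 500.1 and 500.2 on all 24 arrays and the median between 199 and 229, and replicates correlated across probesets at r between 0.941 and 0.966 on the log2 scale. The summed signal of 6 seed coat markers fell between stages, from a median over arrays of 35153 at stage 1 through 30427 and 21271 to 9704 at stage 4 in HiPro seed, and from 42694 through 27338 and 20771 to 12155 in LoPro seed. That of 5 oleosin probesets, markers of the embryo, climbed over the same stages with medians of 13826, 32558, 58674 and 63874 in HiPro seed and 26406, 38295, 61704 and 62098 in LoPro seed. The part of this changing tissue mix in the stage results below was not tested, and in whole seed more cells that express a gene and more transcript per cell cannot be told apart. The actin control, as the log2 signal at its 3′ end minus that at its 5′ end, stayed between 4.46 and 5.39 on all arrays, while the ubiquitin control spread from 0.868 to 6.09, with medians of 4.20 at stage 1 and 2.76 at stage 4 in HiPro seed and of 4.82 and 2.49 in LoPro seed. The P450 control ran between 2.32 and 2.40 at stage 1 and 1.46 and 2.15 at stage 4 in HiPro seed, against 2.27 and 2.63 and then 1.41 and 1.74 in LoPro seed. The highest signal on an array lay between 14547 and 17712 at stage 1 and between 26310 and 34480 at stage 4 in HiPro seed, against 17642 and 27717 and then 26418 and 29632 in LoPro seed. The part of RNA quality and of the array's upper range in the stage results was not tested.

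Beta chain signal was among the brightest on the array by stages 3 and 4, and at stage 1 it differed widely between probesets and, in LoPro seed, between replicates. Gma.1017.1.S1_at, which carries the symbol CG-BETA-1, gave signals of 17.3, 15.9 and 7.67 in the HiPro replicates at stage 1, of 2208, 2265.5 and 1151 at stage 2, of 20233, 20055 and 12946 at stage 3 and of 25596, 29097 and 23268 at stage 4. The same probeset gave 2416, 332 and 6.28 in the LoPro replicates at stage 1, 2720.3, 10711 and 685 at stage 2, 17748, 24269 and 20721 at stage 3 and 25147, 24114 and 24010 at stage 4. In HiPro seed no 2 neighbouring stages overlapped, while in LoPro seed stages 1 and 2 overlapped and one stage 1 array was brighter than the lowest stage 2 array, and stages 3 and 4 overlapped too. How often stages overlapped across all tested probesets was not counted. The 10th percentile of all signals was 14.5, so the HiPro stage 1 arrays and 1 LoPro stage 1 array sat at the bottom of the scale.

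Gma.1017.1.S1_s_at read 37.9, 60.9 and 67.6 in HiPro seed at stage 1, then 6071, 6026 and 3571 at stage 2, 19462, 22545 and 15740 at stage 3 and 21341, 24710 and 19750 at stage 4. In LoPro seed it read 6554, 1266.5 and 88.6 at stage 1, then 6806, 15597 and 2045 at stage 2, 20497, 23773 and 22357 at stage 3 and 21622, 19223 and 19990 at stage 4. It is the one member whose stage 1 arrays did not overlap between the lines, all 3 HiPro arrays lying below all 3 LoPro arrays. The share of all tested probesets without overlap was not counted, so this separation is a description only. Gma.1017.2.S1_a_at read 131, 95.3 and 133 in HiPro seed at stage 1, 2735, 2855 and 1508 at stage 2, 21181, 22599 and 15729 at stage 3 and 21831, 26256 and 19699 at stage 4. In LoPro seed it read 2559, 704 and 92.4 at stage 1, 3579, 13641 and 938 at stage 2, 21552, 25675 and 23677 at stage 3 and 20922, 18323 and 20427 at stage 4. LoPro replicate 2 was the brightest of the 6 stage 2 arrays on all 3 of these probesets, and LoPro replicate 3 the dimmest.

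Gma.16410.1.S1_at, the Glyma10g39170 probeset, was already bright at stage 1 and climbed less. Its signals in HiPro seed were 1349, 2162 and 1304 at stage 1, 6746, 7371 and 4123 at stage 2, 16272, 14749 and 10707 at stage 3 and 19710, 18995 and 18222 at stage 4. In LoPro seed they were 4755, 4588 and 1009 at stage 1, 5572, 8493 and 3964.5 at stage 2, 14133, 18141 and 15879 at stage 3 and 19934, 16430 and 15360 at stage 4. LoPro replicate 3 again had the lowest stage 1 signal, with the other two LoPro arrays above every HiPro array.

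**Figure D1:**
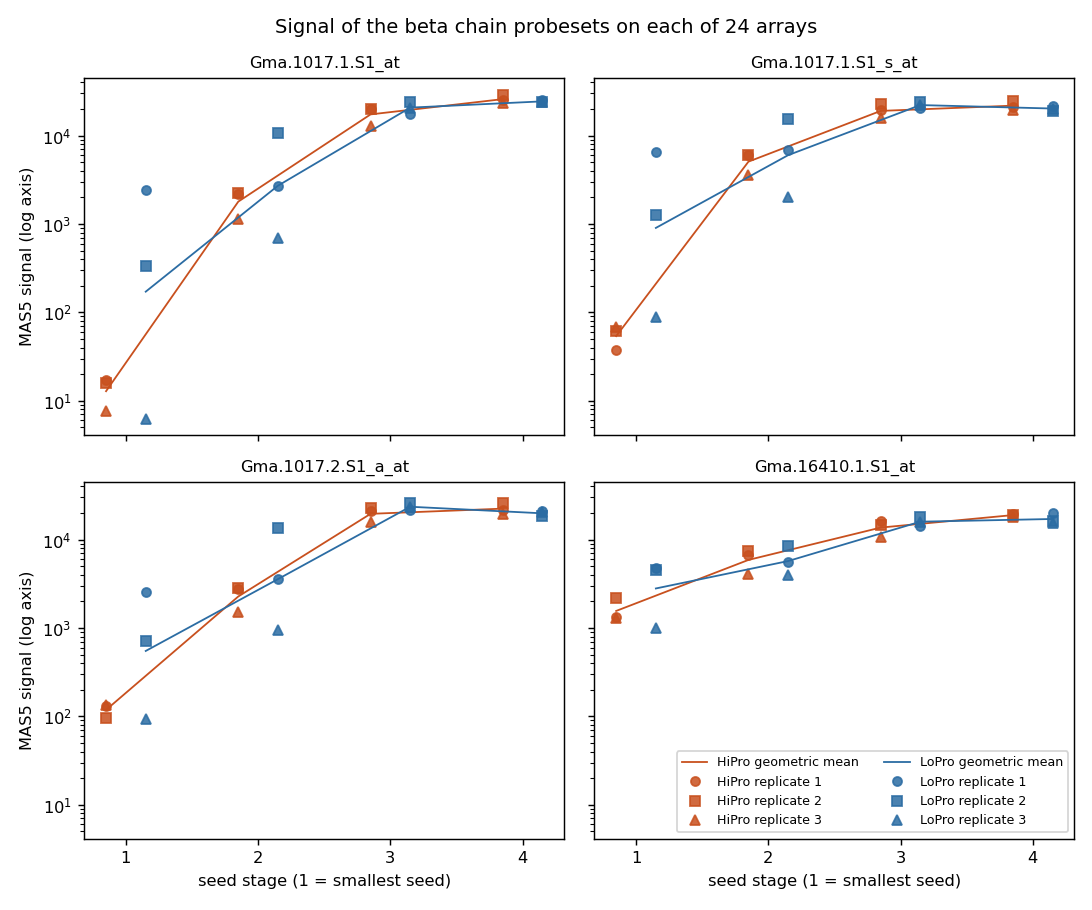
MAS5 signal (log axis) of each beta chain probeset on every array by seed stage, with HiPro left of LoPro, one symbol per replicate and lines through the geometric means. HiPro stage 1 arrays lie close together, LoPro stage 1 arrays are spread from 6.28 to 2416 on Gma.1017.1.S1_at, and both lines meet by stage 3.

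As a share of the line's stage 4 mean, the climb was steepest between stages 1 and 3. The mean of Gma.1017.1.S1_at was 0.0524%, 7.21% and 68.3% of its stage 4 mean at stages 1, 2 and 3 in HiPro seed, and 3.76%, 19.3% and 85.6% in LoPro seed. For Gma.16410.1.S1_at the shares were 8.46%, 32.0% and 73.3% in HiPro seed and 20.01%, 34.9% and 93.1% in LoPro seed. The mean of Gma.1017.2.S1_a_at at stage 3 was 87.8% of the stage 4 mean in HiPro seed and 119% in LoPro seed. By then the probesets were near the top of the array's range: on the 12 stage 3 and stage 4 arrays of both lines together, Gma.1017.1.S1_at reached between 60.5% and 91.3% of the highest signal on its array, and Gma.16410.1.S1_at between 48.2% and 69.3%.

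Stage contrasts were fitted with limma across all 37694 probesets, with calls made where the Benjamini-Hochberg adjusted p was below 0.05 and the change at least 1.5-fold. The beta chain probesets are in the study's own lists of transcripts that increase over seed fill on these arrays, so their rise is not independent evidence. From stage 1 to stage 4, 4 of 4 were called higher in HiPro seed, where 10.7% of all tested probesets were called higher, and 4 of 4 in LoPro seed, where 11.3% were. The log2 change of Gma.1017.1.S1_at was 10.98 ± 1.25 (SE from the fit to all groups, n = 3 per group) in HiPro seed, with an adjusted p of 1.36e-06 in limma, and 7.15 ± 1.25 in LoPro seed, with an adjusted p of 2.03e-04. That of Gma.1017.1.S1_s_at was 8.66 ± 0.90 in HiPro and 4.49 ± 0.90 in LoPro seed, and that of Gma.1017.2.S1_a_at 7.57 ± 0.81 in HiPro and 5.17 ± 0.81 in LoPro seed. Gma.16410.1.S1_at changed by 3.60 ± 0.41 in HiPro seed, or 12.1-fold, and by 2.61 ± 0.41 in LoPro seed, or 6.11-fold. The SEs of fitted changes rest on 1 estimate of the spread that all groups share, the scattered LoPro stage 1 arrays included. From the arrays of the comparison alone, the SE for Gma.1017.1.S1_at was 0.38 in HiPro and 2.52 in LoPro seed. Because stage 1 signals lie so low, the size for Gma.1017.1.S1_at depends on how low values are treated: with 50 added to every signal before log2, the change was 8.67 in HiPro and 6.03 in LoPro seed, and the call held in both. The median change of all tested probesets was -0.01 in HiPro and 0.08 in LoPro seed. From stage 1 to stage 3, 4 of 4 were called higher in HiPro seed, against 5.96% of all tested probesets, and 4 of 4 in LoPro seed, against 7.49%. By the methods' t-test of stage 4 against stage 1, 4 of 4 were called in HiPro seed and 0 of 4 in LoPro seed, where the raw p of the 4 probesets lay between 0.0207 and 0.0682.

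The first step set the lines apart in which limma calls were made, though not in a test of the difference itself. From stage 1 to stage 2, 4 of 4 probesets were called higher in HiPro seed, against 0.560% of all tested probesets, and 0 of 4 in LoPro seed, against 0.305%. The log2 changes for this step were 7.13 ± 1.25, 6.56 ± 0.90 and 4.26 ± 0.81 for the 3 Glyma20g28640 probesets in HiPro seed and 3.98 ± 1.25, 2.73 ± 0.90 and 2.70 ± 0.81 in LoPro seed, in the order _at, _s_at and _a_at. For Gma.16410.1.S1_at they were 1.92 ± 0.41 in HiPro and 1.03 ± 0.41 in LoPro seed. Adjusted p-values from limma ran from 0.00118 to 0.0220 in HiPro seed and from 0.163 to 0.328 in LoPro seed, where the raw p was below 0.02 for all 4. By the methods' t-test 0 of 4 were called in HiPro seed as well, with adjusted p from 0.0653 to 0.168. The 3 Glyma20g28640 probesets head the study's own list of the largest HiPro rises from stage 1 to stage 4. They are absent from its matching LoPro list. Those lists use the same stage 1 arrays, so calls in HiPro and not in LoPro seed are not independent of them. The HiPro calls rested on all 3 pools: without replicate 1, 2 or 3 of HiPro, 0, 0 and 1 of the 4 were called, and 2 without stage 2 replicate 1 or stage 2 replicate 2 alone. In LoPro seed 3 of 4 were called without stage 1 replicate 1 and 1 of 4 without stage 2 replicate 3. The share of all tested probesets called was not counted in these refits. The change in HiPro minus that in LoPro was 3.14 (95% interval -0.54 to 6.83), 3.82 (1.16 to 6.49), 1.56 (-0.83 to 3.95) and 0.89 (-0.31 to 2.09) for _at, _s_at, _a_at and Gma.16410.1.S1_at, and 0 of 4 were called, as were 0% of all tested probesets in limma, of which 1556 had a raw p below 0.05.

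Within pools the first step looked different in the 3 LoPro replicates. On Gma.1017.1.S1_at the log2 change from stage 1 to stage 2 was 7.0, 7.15 and 7.23 in HiPro pools 1, 2 and 3, and 0.17, 5.01 and 6.77 in LoPro pools 1, 2 and 3. On Gma.1017.1.S1_s_at it was 7.32, 6.63 and 5.72 in the HiPro pools and 0.05, 3.62 and 4.53 in the LoPro pools. LoPro pool 1 therefore showed almost no change in this step, from a stage 1 signal that was already high, and LoPro pool 3 changed nearly as much as the HiPro pools on Gma.1017.1.S1_at. On Gma.1017.2.S1_a_at the changes were 4.39, 4.90 and 3.50 in the HiPro pools and 0.48, 4.28 and 3.34 in the LoPro pools. On this probeset and on Gma.1017.1.S1_s_at, LoPro pool 3 lay below every HiPro pool.

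**Figure D2:**
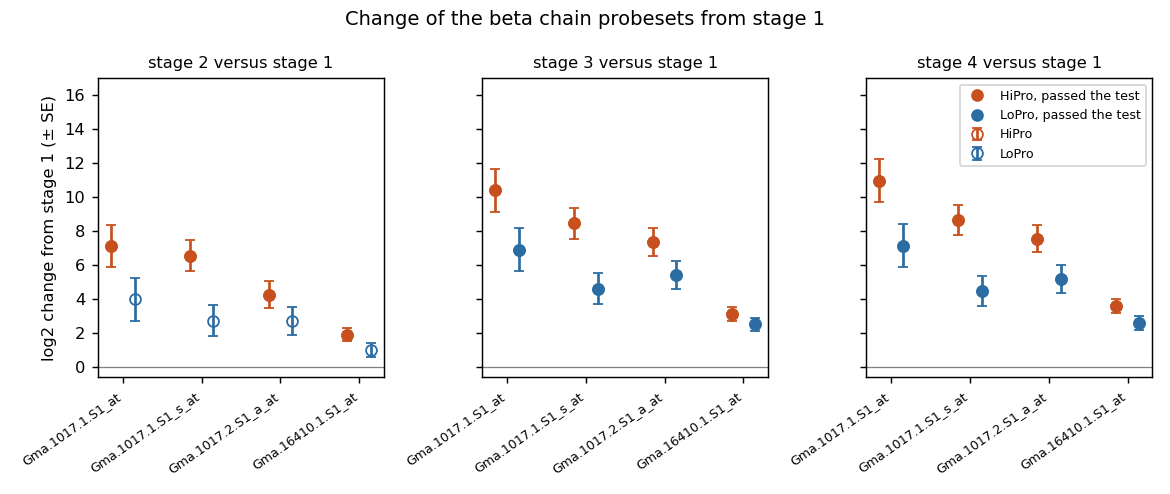
Fitted log2 change of each probeset from stage 1 to stages 2, 3 and 4 (error bars, SE from the spread shared by all groups), HiPro left of LoPro, with filled symbols where the change passed the test. All 8 changes to stage 4 passed, and at stage 2 only the 4 HiPro changes did.

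The second step had like fitted sizes in both lines, with wide intervals on their difference. From stage 2 to stage 3 the log2 change was 3.28 ± 1.25 in HiPro and 2.93 ± 1.25 in LoPro seed for Gma.1017.1.S1_at, 1.91 ± 0.90 and 1.88 ± 0.90 for Gma.1017.1.S1_s_at, 3.11 ± 0.81 and 2.72 ± 0.81 for Gma.1017.2.S1_a_at and 1.22 ± 0.41 and 1.48 ± 0.41 for Gma.16410.1.S1_at, HiPro first in each pair. Gma.1017.2.S1_a_at was the 1 member called higher in HiPro seed (adjusted p = 0.0380 in limma), where 1.13% of all tested probesets were called higher, and it was called with Gma.16410.1.S1_at in LoPro seed (adjusted p = 0.0315 and 0.0209), where 4.68% were. These calls rested on all 3 pools of a line: leaving out any 1 pool gave 0 called in HiPro seed and 0 or 1 in LoPro seed. With the plant pool as a block, 2 of 4 were called in HiPro seed, the second being Gma.16410.1.S1_at (adjusted p = 0.0259 as a fixed and 0.0473 as a random block). The difference of this step between the lines was between -0.26 and 0.39 on the log2 scale for the 4 members, with 0 called and a 95% interval from -3.34 to 4.03 for Gma.1017.1.S1_at and from -1.47 to 0.94 for Gma.16410.1.S1_at. For the step from stage 3 to stage 4 it was between 0.33 and 0.44, with 0 of 4 called against 0.00265% of all tested probesets.

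From stage 3 to stage 4 no beta chain probeset passed the test. The log2 change was between 0.19 and 0.57 in HiPro seed and between -0.25 and 0.24 in LoPro seed, and 0 of 4 were called in either line, against 0.0133% of all tested probesets called higher in HiPro seed and 0.0345% in LoPro seed. The within-pool changes of the 4 probesets were all upward in HiPro, from 0.04 to 0.85, and ran from -0.49 to 0.50 in LoPro. The 95% intervals of the HiPro change in this step reached from -2.03 to 3.18 for Gma.1017.1.S1_at and from -0.38 to 1.32 for Gma.16410.1.S1_at. They rest on the spread shared by all groups and hold both a fall and a rise.

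The comparison of the lines at stage 1 turned on 1 LoPro array. The fitted HiPro minus LoPro difference was -3.74 (95% interval -6.35 to -1.14) for Gma.1017.1.S1_at, -4.07 (-5.95 to -2.18) for Gma.1017.1.S1_s_at, -2.22 (-3.91 to -0.53) for Gma.1017.2.S1_a_at and -0.84 (-1.69 to 0.01) for Gma.16410.1.S1_at. None was called, with adjusted p from 0.374 to 0.999 in limma, and 0.0159% of all tested probesets were called in either direction. The intervals rest on the spread shared by all groups, which is smaller than that of the LoPro stage 1 arrays. For Gma.1017.1.S1_at the SD of log2 signal at stage 1 was 0.64 in HiPro and 4.37 in LoPro seed (n = 3 each). The stage 1 intervals are therefore too narrow to show a difference between the lines. Without LoPro stage 1 replicate 3, 4 of 4 were called lower in HiPro, with log2 differences of -6.13, -5.74, -3.50 and -1.58 and adjusted p from 6.97e-05 to 0.0250, where 0.220% of all tested probesets were called lower. Without LoPro stage 1 replicate 1, 0 of 4 were called, with differences of -1.83, -2.64, -1.11 and -0.46, where 0.00796% of all tested probesets were called lower. Without replicate 2 also 0 of 4 were called, with -3.26, -3.82, -2.04 and -0.49, against 0.00531%. The labels give the weight class of the seed and not its mean weight in a pool, and the part of seed weight within the class was not tested.

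At stages 2 to 4 the fitted differences between the lines were smaller on all 4 probesets. At stage 2 the HiPro minus LoPro difference was -0.60, -0.24, -0.65 and 0.04 for _at, _s_at, _a_at and Gma.16410.1.S1_at, at stage 3 -0.25, -0.22, -0.27 and -0.22, and at stage 4 0.08, 0.11, 0.18 and 0.15. None was called at any of these stages, where 0.0133%, 0.0345% and 0.0610% of all tested probesets were called in either direction at stages 2, 3 and 4. Averaged over the 4 stages the difference was -1.13, -1.11, -0.74 and -0.22, with 0 of 4 called against 0.0982% of all tested probesets. Without LoPro replicate 3 at every stage 3 of 4 were called, and the share of all tested probesets called was not counted for that refit. The intervals at stage 2 ran from -3.20 to 2.01 for Gma.1017.1.S1_at and from -2.34 to 1.04 for Gma.1017.2.S1_a_at, and LoPro arrays of Gma.1017.1.S1_at were spread from 685 to 10711 there, around the HiPro arrays. The intervals at stage 4 ran from -2.52 to 2.69 for Gma.1017.1.S1_at and from -0.70 to 0.996 for Gma.16410.1.S1_at, because all groups share 1 estimate of the spread that includes the scattered LoPro stage 1 arrays. The arrays themselves were closer than that at stage 4, with 18976 ± 744 (SD, n = 3) in HiPro and 17241 ± 2393 (SD, n = 3) in LoPro seed for Gma.16410.1.S1_at. The change from stage 1 to stage 4 differed between the lines by 3.83, 4.18, 2.39 and 0.99, larger in HiPro, with adjusted p of at least 0.969 in limma and 0 of 4 called. Of all tested probesets 0% were called for this difference, and 1862 had a raw p below 0.05. Without LoPro stage 1 replicate 3, 2 of 4 were called (Gma.1017.1.S1_at, 6.21, and Gma.1017.1.S1_s_at, 5.85), and the share of all tested probesets was not counted for that refit either.

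**Figure D3:**
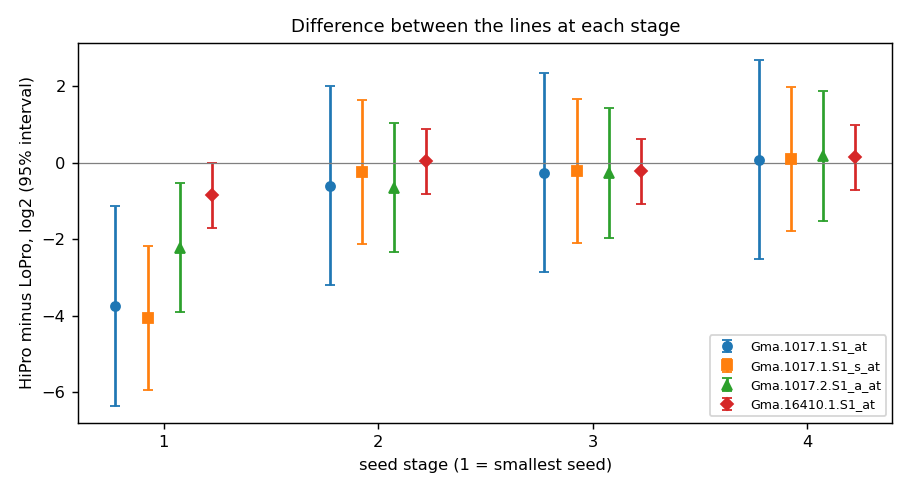
HiPro minus LoPro log2 signal at each stage for the 4 probesets, with 95% intervals from the fit. The intervals rest on the spread shared by all groups and are too narrow at stage 1. The differences are below 0 at stage 1, from -4.07 to -0.84, and between -0.65 and 0.18 at stages 2 to 4.

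Most other seed storage protein probesets were also lowest in LoPro replicate 3 at stage 1. Of 20 other probesets described as storage proteins, trypsin inhibitors, conglycinins or glycinins, 17 were lowest in LoPro replicate 3 at stage 1, 12 highest in replicate 1 and 7 in replicate 2. Some of the 20 stand for the same gene. The shares of all tested probesets lowest or highest in each replicate were not counted, so these counts are a description only. Relative to the HiPro stage 1 mean, the median of the 20 probesets was 1.05 in LoPro replicate 1, 0.76 in replicate 2 and -0.09 in replicate 3 on the log2 scale. The beta chain probesets stood farther out, Gma.1017.1.S1_at by 7.56, 4.70 and -1.03 and Gma.1017.1.S1_s_at by 6.93, 4.56 and 0.72 in LoPro replicates 1, 2 and 3. Like those 12, the 3 Glyma20g28640 probesets were brightest in replicate 1. Glycinin G3 (GY3), an 11S globulin subunit, was among the 7 brightest in replicate 2 and stood at 1.38, 2.31 and -1.54, as was the alpha' probeset, at 1.06, 1.94 and -0.42. Across all tested probesets, 2351, 1707 and 999 lay at least 1 above the HiPro stage 1 mean in LoPro replicates 1, 2 and 3. Summed oleosin signal, the embryo marker, was between 13019 and 14012 on the HiPro stage 1 arrays and between 15814 and 29075 on the LoPro stage 1 arrays. Summed seed coat signal, which fell between stages, was between 30352.5 and 39419 on the HiPro stage 1 arrays. On the LoPro stage 1 arrays it was between 36332 and 46319. The part of the tissue mix in the stage 1 values was not tested.

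**Figure D4:**
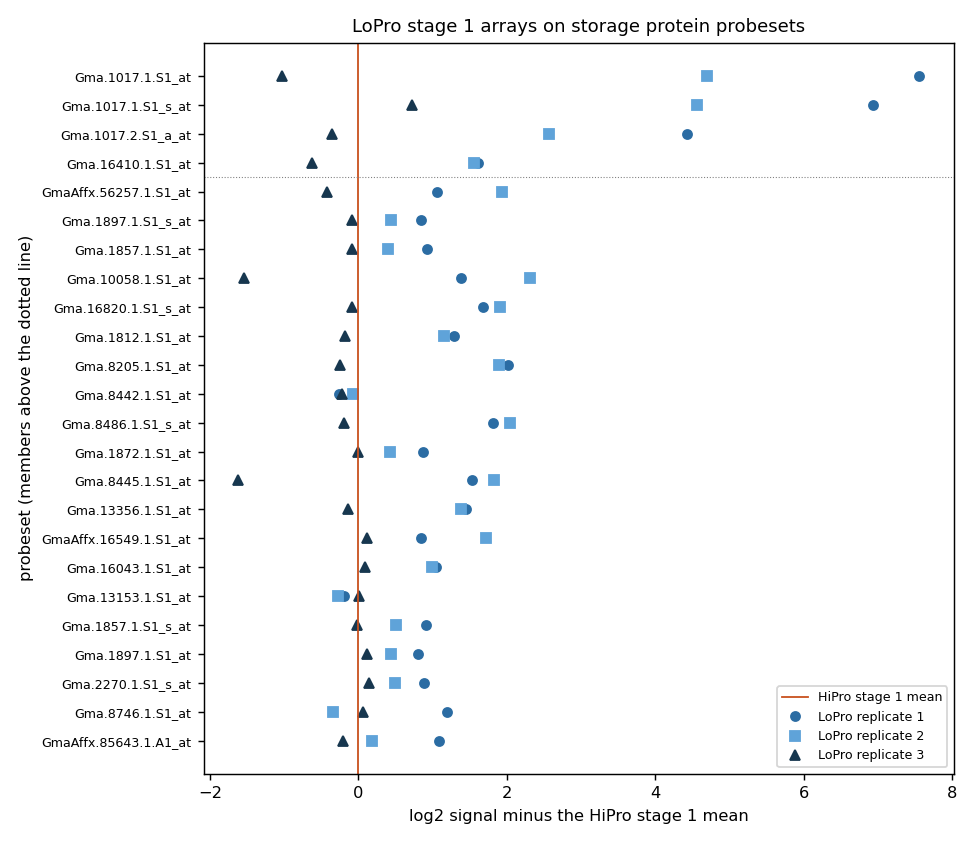
Log2 signal of each LoPro stage 1 array minus the HiPro stage 1 mean (line at 0), for the 4 beta chain probesets above the dotted line and 20 other storage protein probesets, by probeset ID, below it. Replicates 1 and 2 lie right of the line for most probesets and replicate 3 near it, and the 3 Gma.1017 probesets reach farthest right, up to 7.56.

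The probesets of the 2 gene models gave unequal changes within the same plants. In each pool the mean log2 change of the 3 Glyma20g28640 probesets from stage 1 to stage 4 exceeded that of Gma.16410.1.S1_at, by 5.15, 6.07 and 5.18 in HiPro pools 1, 2 and 3 and by 0.64, 3.10 and 5.24 in LoPro pools 1, 2 and 3. The mean excess was 4.23 ± 2.02 (SD, n = 6 pools), higher in 6 of 6, with p = 0.0313 in a two-sided exact permutation test of signs, the smallest p that 6 pools allow. The 3 probesets head the study's list of the largest HiPro rises between these stages on the same arrays. Gma.16410.1.S1_at is not in that list, so this p is not independent support. The excess was 5.47 ± 0.52 in HiPro and 2.99 ± 2.30 in LoPro pools (SD, n = 3 each). With Gma.1017.1.S1_s_at alone it was 3.47 and missed the threshold (exact p = 0.0625), since in LoPro pool 1 that probeset changed by 1.72 and Gma.16410.1.S1_at by 2.07. With Gma.1017.2.S1_a_at alone it was 3.26, and with signals floored at the 10th percentile 4.11 (exact p = 0.0313 each). From stage 1 to stage 3 the excess was 4.38 ± 1.94, again in 6 of 6 pools (exact p = 0.0313). From stage 3 to stage 4 it was -0.15 ± 0.12 and below 0 in 6 of 6 pools (exact p = 0.0313), but with Gma.1017.1.S1_at alone in place of the 3 probesets it was 0.12, so its direction depended on the probeset. The excess compares different probes, of which Gma.1017.1.S1_at lay at the bottom of the scale at stage 1 in HiPro seed and LoPro replicate 3 and all lay high on it at stage 4, so it measures unequal change of signal and is no measure of how far the transcripts themselves differed. LoPro pool 1 had the smallest excess, and its stage 1 array was the one on which the Glyma20g28640 probesets were brightest.

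**Figure D5:**
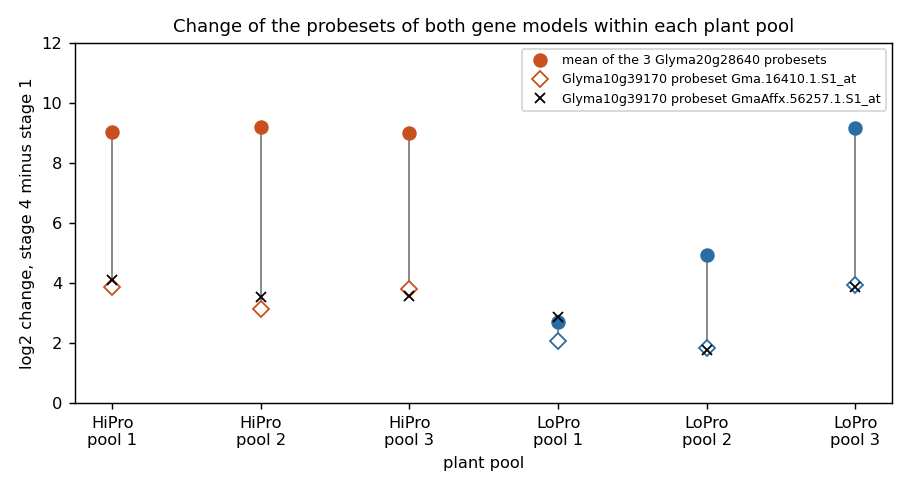
Log2 change from stage 1 to stage 4 within each plant pool, HiPro pools at the left, for the mean of the 3 Glyma20g28640 probesets (filled circles), Gma.16410.1.S1_at (open diamonds) and the alpha' probeset (crosses). The circles lie above the diamonds in 6 of 6 pools, by 0.64 in LoPro pool 1 and by 6.07 in HiPro pool 2.

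The probeset that shares the Glyma10g39170 model moved much as Gma.16410.1.S1_at did. The alpha' probeset gave 733, 839 and 766 in HiPro seed at stage 1 and 12559, 9732.5 and 9120 at stage 4, against 1624, 2980.2 and 583 and then 11774, 10157 and 8460 in LoPro seed. Its log2 change was 3.74 ± 0.41 in HiPro and 2.83 ± 0.41 in LoPro seed. Within pools it exceeded the change of Gma.16410.1.S1_at by 0.18 ± 0.38 (SD, n = 6), between -0.23 and 0.79 and above 0 in 3 of 6 pools. Over the 24 arrays the pair correlated at r = 0.988 on the log2 scale, where arrays share plants and the seed fill trend.

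The 3 further probesets annotated to alpha' or alpha chain genes changed less than the alpha' probeset. A probeset annotated to both the alpha' gene CG-1 and the alpha gene CG-3 read 12321, 14299 and 15881 in HiPro seed and 25984, 19800 and 15627 in LoPro seed at stage 1, and 25308, 30301 and 21552 in HiPro seed and 23649, 21091 and 23540 in LoPro seed at stage 4. Its log2 change was 0.85 ± 0.19, called, in HiPro seed and 0.18 ± 0.19, not called, in LoPro seed. It was already near the highest signal of the array at stage 1, where that signal was 14547 to 17712 in HiPro and 17642 to 27717 in LoPro seed. The part of the array's upper range in its small change was not tested. Of a pair of probesets annotated to CG-1 alone, the brighter changed by 0.49 ± 0.24 in HiPro and 0.09 ± 0.24 in LoPro seed, neither called. The dimmer gave no more than 304 on any array, and its log2 change was -0.89 ± 0.41 in HiPro seed, not called, and -2.05 ± 0.41 in LoPro seed, called lower. The pair did not move together.

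The probesets most alike in pattern to the beta chain were mostly other storage and seed proteins. By Pearson's r of log2 signal over the 24 arrays, the probesets most like the mean of the 3 Glyma20g28640 probesets were allergen Gly m Bd 28K (r = 0.987), a vicilin-like seed protein, then seed lipoxygenase 3 (LOX3, 0.986), glycinin G4 (0.984), sucrose-binding protein 2 (SBP2, 0.981), seed lipoxygenase 1 (LOX1.1, 0.981), LOC100306653 (0.979), the Kunitz trypsin inhibitor KTI1 (0.979) and LOC100305847 (0.977). These patterns had the same shape over the arrays with smaller changes, such as 2.04 in HiPro and 1.24 in LoPro seed from stage 1 to stage 4 for seed lipoxygenase 3. By Spearman's rho, 2 of the 8 stayed among the 8 most alike, seed lipoxygenase 3 (0.982) and LOC100306653 (0.973).

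The probesets most like Gma.16410.1.S1_at were other ones. A probeset matched to Glyma01g38340, the gene model of the vicilin-like protein PreproMP73, came first (r = 0.991), then a probeset with no description (0.990), a steroleosin of the oil body surface (0.989), a Tim17/22 subunit of the mitochondrial import machinery (0.989) and the alpha' probeset (0.988). A short chain dehydrogenase (0.988), the dehydrin PM12 (0.988), one of the hydrophilic proteins of late seed development, and a probeset of the gene model Glyma02g26860 (0.987) followed. By Spearman's rho the Tim17/22 probeset (0.981) was the 1 of the 8 that stayed. Among the members themselves r was 0.987, 0.989 and 0.972 for the pairs of Glyma20g28640 probesets and between 0.946 and 0.975 for Gma.16410.1.S1_at with each of them. These coefficients are descriptions over arrays that share plants and a common trend with seed size.

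The other storage proteins mostly climbed too. Of 15 probesets in a list of other storage proteins, drawn like the members from the study's own lists of transcripts that change over seed fill on these arrays, 14 were called higher and 1 lower at stage 4 than at stage 1 in HiPro seed, where 10.7% of all tested probesets were called higher and 13.5% lower. In LoPro seed 13 were called higher and 1 lower, where 11.3% and 10.4% were. Their median log2 change was 2.48 in HiPro and 1.49 in LoPro seed, beside medians of 8.11 in HiPro and 4.83 in LoPro seed over the 4 beta chain probesets, which rest on other probes. The largest changes in the list were those of glycinin G3 (GY3), 6.40 ± 0.60 in HiPro and 5.14 ± 0.60 in LoPro seed, basic 7S globulin 2 (BG7S-2), 5.14 ± 0.74 in both, and sucrose-binding protein 2 (SBP2), a cupin related to the vicilins, 4.91 ± 0.41 in HiPro and 3.52 ± 0.41 in LoPro seed. All 3 exceeded the change of Gma.16410.1.S1_at in both lines. Glycinin G1 (GY1), an abundant 11S subunit, changed by 1.15 ± 0.19 in HiPro and 0.62 ± 0.19 in LoPro seed on its probeset in the list. Another GY1 probeset, outside the list, had mean log2 signals of 13.72 at stage 1 and 14.28 at stage 4 in HiPro seed. In LoPro seed that probeset had 14.17 and 14.16. A Kunitz trypsin inhibitor probeset (LOC100500579) was the one called lower, at -2.60 ± 0.25 in HiPro and -2.75 ± 0.25 in LoPro seed. In the step from stage 1 to stage 2, 9 of the 15 were called higher in HiPro seed, against 0.560% of all tested probesets, and 2 in LoPro seed, against 0.305%, with medians of 1.49 in HiPro and 0.79 in LoPro seed.

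Genes that act on storage proteins changed in both directions. Of 7 probesets for vacuolar sorting receptors, which carry storage proteins to the vacuole, and for BiP, the chaperone of the endoplasmic reticulum lumen, 3 were called higher and 1 lower at stage 4 in HiPro seed, against 10.7% and 13.5% of all tested probesets, and 4 higher and 1 lower in LoPro seed, against 11.3% and 10.4%. The vacuolar sorting receptor 7, the putative receptor and the receptor 6 probesets changed by 2.99, 2.97 and 2.46 in HiPro and by 3.14, 2.66 and 2.71 in LoPro seed, and the BiP probeset BIP2 fell by 1.26 in HiPro and by 0.96 in LoPro seed. LEC1-A, of the LEC1 family of embryo regulators, fell by 1.23 ± 0.13 in HiPro and by 1.21 ± 0.13 in LoPro seed. It was the only probeset found for the seed maturation regulators searched, which were ABI3, FUS3, LEC1, LEC2 and ABI5.

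Markers of other seed tissue changed as follows between stage 1 and stage 4, where 10.7% of all tested probesets were called higher and 13.5% lower in HiPro seed and 11.3% higher and 10.4% lower in LoPro seed. Of 6 seed coat probesets, 5 were called lower and 1 higher in both lines, with anthocyanidin reductase ANR1, of the proanthocyanidin pathway, at -6.67 in HiPro and -6.76 in LoPro seed and dihydroflavonol reductase DFR2 at -5.43 in HiPro and -4.99 in LoPro seed. The one called higher was seed coat peroxidase (Ep), at 1.49 in HiPro and 1.98 in LoPro seed. Of 5 oleosin probesets, 5 were called higher in both lines, with medians of 2.58 in HiPro and 1.64 in LoPro seed. Of 7 photosynthesis probesets, 1 was called higher and 4 lower in HiPro seed, and 1 higher and 5 lower in LoPro seed. None of these lists held a probeset called different between HiPro and LoPro at stage 1, where 0.0159% of all tested probesets were called in either direction. The HiPro minus LoPro difference there ran from -0.84 to -0.29 for the oleosin probesets. It ran from -0.43 to 0.10 for the seed coat and from -0.25 to 0.08 for the photosynthesis probesets.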

How the data were processed

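Developing seed of 2 lines at 4 stages was hybridised to the Soy GeneChip, with 3 arrays per group. The intensity values were deposited as linear MAS5 signals (tool per the labels, version not given in the sources used here), scaled array by array by the authors; the methods name RMA for the paper's own values, which were not used here. The number of arrays limits the precision. The members and lists were chosen with earlier results of these data known.

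After leaving out 69 controls, log2 signals of 37694 probesets (8677 with 1 gene symbol, 370 with several, 28647 with none; none is named from a probeset with several) went into limma 3.58.1 (R 4.3.3) with a mean for each of the 8 groups, an intensity trend in eBayes and 16 residual degrees of freedom. The fit was tested on simulated data. Calls needed a Benjamini-Hochberg adjusted p under 0.05 and 1.5-fold. Sign tests over pools were exact. By the methods the seed of all 4 stages was picked from the same plants at one harvest: residuals of arrays of one pool correlated at 0.10 on average, of the same number in the other line at 0.08 and of other pairs at -0.04. The pool was a block in alternative fits only; others were normalization, floors, an offset of 50, filtering, the methods' t-test and leaving out pools or arrays. The 2 contrasts between the lines (stage 3 against 2, 4 against 3) were added after the data were seen. Named besides the members were the 8 probesets most alike in pattern, all beta-conglycinin chains and up to 4 called members of each list; glycinin G1, seed coat peroxidase and the lowered trypsin inhibitor were chosen after their values were seen. No sequence is printed, since no sequence table was used here.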

Additional observations from a re-analysis of the deposited data

Results flagged for a closer look

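On Gma.1017.2.S1_a_at the step from stage 3 to stage 4 was upward in every HiPro pool, by 0.04, 0.22 and 0.32 on the log2 scale, and downward in every LoPro pool, by -0.04, -0.49 and -0.21. The HiPro change minus the LoPro change was 0.44 (SE 1.15, 95% interval -1.95 to 2.83), and it was not called by limma, with an adjusted p of 0.9998, in a contrast added after the data were seen. Of all tested probesets, 0.00265% were called for this contrast. The signs were compared for 4 probesets over 5 steps between stages. The share of all tested probesets with such opposite signs was not counted, so the pattern is a description only.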

How the results depend on the processing

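The 4 members' changes from stage 1 to stage 4 and from stage 1 to stage 3 in HiPro seed were called under all alternatives run. Over 1728 member changes refitted under an alternative, 1609 kept their direction and call, 58 lost a call, 28 gained one and 33 turned in sign, all of the last in differences between the lines or in the LoPro step from stage 3 to stage 4. By the methods' t-test, which uses the 6 arrays of a comparison, 0 of 4 were called for HiPro stage 2 against 1, HiPro stage 3 against 2, LoPro stage 3 against 1, LoPro stage 4 against 1 and LoPro stage 3 against 2. The share of all tested probesets that this t-test called was not counted. For HiPro stage 3 against 2 the count of 1 became 0 with the floor at the 10th percentile and without the trend, and 2 with 50 added and with the plant pool as a fixed or random replicate block. For LoPro stage 3 against 2 the count of 2 became 0 under quantile normalization and 1 without the trend. The cause was not tested. The replicate block changed no other count of calls.

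Quantile normalization turned the HiPro minus LoPro difference at stage 4 to -0.060 for Gma.1017.1.S1_at and -0.018 for Gma.1017.1.S1_s_at. With 1 pool or array left out, the number of members called ran from 0 to 4 for HiPro stage 2 against 1, 0 to 1 for HiPro stage 3 against 2, 0 to 3 for LoPro stage 2 against 1, 0 to 2 for LoPro stage 3 against 2, 0 to 4 for HiPro against LoPro at stage 1, 0 to 3 over the mean of stages, and 0 to 1, 0 to 1 and 0 to 2 for the difference of changes to stages 2, 3 and 4. The largest of these for the lines came without LoPro replicate 3. Among these refits, the share of all tested probesets called was counted only for HiPro against LoPro at stage 1 without a LoPro array. The stage 2 difference between the lines ran from -1.59 to 0.39 for Gma.1017.1.S1_at, -1.02 to 0.44 for Gma.1017.1.S1_s_at, -1.62 to 0.31 for Gma.1017.2.S1_a_at and -0.22 to 0.33 for Gma.16410.1.S1_at. The difference of changes from stage 2 to 3 ran from -0.65 to 1.34, -0.66 to 0.81, -0.58 to 1.36 and -0.55 to 0.0011 for the same probesets, the stage 4 difference of Gma.1017.1.S1_at from -8.3e-04 to 0.16 and the LoPro step from stage 3 to 4 of Gma.16410.1.S1_at from -0.10 to 0.22.

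For the excess of the Glyma20g28640 change, leaving out a pool gave 4.03 to 5.06 to stage 3, 3.86 to 4.95 to stage 4 and -0.18 to -0.11 from stage 3 to 4, where 5 pools cannot pass the threshold by construction. With Gma.1017.1.S1_s_at alone the excess to stage 4 was 3.47 and missed the threshold. From stage 3 to 4 it was -0.11 under quantile normalization, past it no longer, and 0.12 with Gma.1017.1.S1_at alone. The promoter motif search was not run. Signals near the low end at stage 1 and near the top of the array at stages 3 and 4 limit the sizes of the changes.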
